A study of Mus musculus with 6 samples.

Results

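The genes described here encode the nuclear subunits of the respiratory chain and of the mitochondrial ATP synthase. They were chosen by name and not by any measured value, as the protein-coding genes on the autosomes and X whose symbols begin with Ndufa, Ndufb, Ndufc, Ndufs or Ndufv, with Uqcr, with Cox4 to Cox8 and a letter, or with Atp5. This rule gave 94 of 21603 protein-coding genes on these chromosomes in GENCODE M39, under 93 symbols, because Atp5po has a second record that the annotation marks as a readthrough gene. Of the 94 genes, 38 encode subunits of complex I, 8 assembly factors of complex I, 8 subunits of complex III, 21 subunits of complex IV with their isoforms and close relatives, and 19 subunits or regulators of the ATP synthase. Ndufa4 is named after complex I but is known as a subunit of complex IV, and was counted there with its paralog Ndufa4l2.

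Chromatin accessibility was profiled by ATAC-seq, in which a transposase inserts adapters into open DNA, in nuclei from the kidney cortex of mice. The libraries mapped here are 3 from WT mice, which were littermates with floxed Acly and no Cre, and 3 from Acly cKO mice (tubule-specific Acly knockout), which carried Acly fl/fl and Ksp-Cre. Ksp-Cre recombines in proximal tubules, distal tubules and collecting ducts, so the other cells of the cortex kept ACLY, the enzyme that makes cytosolic acetyl-CoA from citrate. All libraries are labelled as Control treatment, and the methods give an age for the mice of the study in general but not for those profiled by ATAC-seq. By their labels the genotypes share no batch (WT 1 and 2, Acly cKO 4 and 5), and genotype therefore cannot be told apart from batch. The peaks were deposited as a single call whose peak names point to all libraries pooled, and the files do not show which libraries entered it. The study's methods also name WT libraries deposited earlier, which were not analysed here and may have entered the call. Since nothing in the list is given per library, library depth is unknown, the values below have no replicate error, no test was made, and genotypes were not compared. The values describe the pooled kidney cortex, in which a promoter open in few cells and a promoter weakly open in many cannot be told apart.

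As background, complex I oxidises NADH, complex III passes electrons to cytochrome c, and complex IV hands them to oxygen. The protons pumped on the way drive the ATP synthase. Kidney tubules, and the proximal tubule above all, depend on this pathway for the ATP that powers solute transport. Most subunits are encoded in the nucleus and made in nearly every cell, while some subunits of complex IV have isoforms known mainly from heart and skeletal muscle, testis, or lung and vessel wall. NRF1 and GABP (an ETS family factor, also called NRF2) are the factors best known for binding promoters of these genes.

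The promoters of the isoform genes carry much of what follows, so the 150 bases just upstream of the start site are printed for 4 pairs, from the GRCm39 reference, 5′ to 3′ in the direction of the gene. The widely used gene is given before its tissue isoform. Capitals mark matches to NRF1 (GCGCANGCG) or GABP (CCGGAAGT) on either strand. The 10-base run in Cox6a1 holds an NRF1 match on each strand. Of the 2 GABP matches of Cox8a, 1 lies in the printed bases.
Cox7a2 (chr9:79667163-79667312, minus strand): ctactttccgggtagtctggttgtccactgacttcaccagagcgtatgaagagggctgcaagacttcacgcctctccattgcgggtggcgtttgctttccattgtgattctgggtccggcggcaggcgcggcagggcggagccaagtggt
Cox7a1 (chr7:29883419-29883568, plus strand): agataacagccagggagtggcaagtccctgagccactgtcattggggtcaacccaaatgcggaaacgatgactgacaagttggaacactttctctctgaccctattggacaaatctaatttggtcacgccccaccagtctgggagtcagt
Cox8a (chr19:7194965-7195114, minus strand): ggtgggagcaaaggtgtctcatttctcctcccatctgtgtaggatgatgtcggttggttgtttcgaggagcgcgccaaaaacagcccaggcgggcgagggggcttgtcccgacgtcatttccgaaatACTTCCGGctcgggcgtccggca
Cox8b (chr7:140480360-140480509, minus strand): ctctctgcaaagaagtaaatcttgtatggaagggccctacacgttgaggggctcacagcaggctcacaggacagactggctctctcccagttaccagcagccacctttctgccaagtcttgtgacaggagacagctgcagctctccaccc
Cox6a1 (chr5:115487041-115487190, minus strand): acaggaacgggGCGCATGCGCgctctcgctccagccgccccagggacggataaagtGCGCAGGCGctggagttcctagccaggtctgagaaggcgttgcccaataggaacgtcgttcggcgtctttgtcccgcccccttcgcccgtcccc
Cox6a2 (chr7:127805560-127805709, minus strand): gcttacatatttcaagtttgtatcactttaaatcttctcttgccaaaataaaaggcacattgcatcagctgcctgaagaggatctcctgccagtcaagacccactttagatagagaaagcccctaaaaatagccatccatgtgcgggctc
Cox4i1 (chr8:121394777-121394926, plus strand): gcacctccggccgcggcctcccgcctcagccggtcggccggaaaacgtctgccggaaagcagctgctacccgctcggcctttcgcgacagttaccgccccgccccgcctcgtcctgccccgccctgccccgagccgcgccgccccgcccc
Cox4i2 (chr2:152595913-152596062, plus strand): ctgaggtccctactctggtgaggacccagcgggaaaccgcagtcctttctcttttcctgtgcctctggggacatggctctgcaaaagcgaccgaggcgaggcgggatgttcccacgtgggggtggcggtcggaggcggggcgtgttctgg

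Nearly all of these genes had a peak at the promoter in the pooled call. A peak here is a distinct interval of the pooled list, and a gene took the strongest interval lying at most 1 kb from its transcription start site (TSS), that of the canonical transcript. The value given is the fold enrichment of the interval's highest summit, a linear ratio of the coverage over the caller's background. Of the 94 genes, 89 (94.7%, Wilson 95% interval 88.1% to 97.7%) had an interval, against a background of 76.4% of all protein-coding genes. The Wilson intervals here and below cover counting error only. A fold enrichment of at least 5 was reached by 87 members (92.6%), against 66.7% of all genes. A fold enrichment of at least 20 was reached by 79 members (84.0%), against 49.7% of all genes.

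The level was also above that of the usual open promoter. Over the 89 members with an interval the median fold enrichment was 41.6 (quartiles 31.0 and 53.4), against 30.1 (quartiles 12.4 and 48.3) over the 16494 genes with an interval. The members ran from 2.03 at Cox8b to 92.3 at Atp5pf, and 68 of the 94 (72.3%, Wilson 62.6% to 80.4%) lay above the median of the genes with an interval, as did 8238 of all 21603 genes (38.1%). In all 89 an interval covered the start site itself (at Cox8b a weaker interval than the strongest), so that no member lay at the edge of the 1 kb limit. The nearest intervals beyond it were 1800 bp away at Cox6a2, with a fold enrichment of 4.58, and 2218 bp away at Cox7b2, with 6.35. Fold enrichments in the list come in steps of 0.0655, and some members therefore share a value, such as Ndufa4 and Ndufa5 at 67.9. Ranking the members by the q of their summit gave the same order as ranking them by fold enrichment.

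Other sets of mostly housekeeping genes, taken by the start of their symbols, give a measure for these values. The 78 genes of the mitochondrial ribosome had a median of 31.9-fold, and 65 of them (83.3%) reached 20-fold. For the cytosolic ribosome, symbols beginning with Rpl or Rps and a number, Rplp and a number, or Rpsa were taken. This rule does not exclude genes of similar name that encode no ribosomal protein. These 105 genes had a median of 38.6-fold, and 87 (82.9%) reached 20-fold. The share of respiratory genes past 20-fold, 84.0%, was thus close to that of both sets as taken by symbol.

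**Figure D1:**
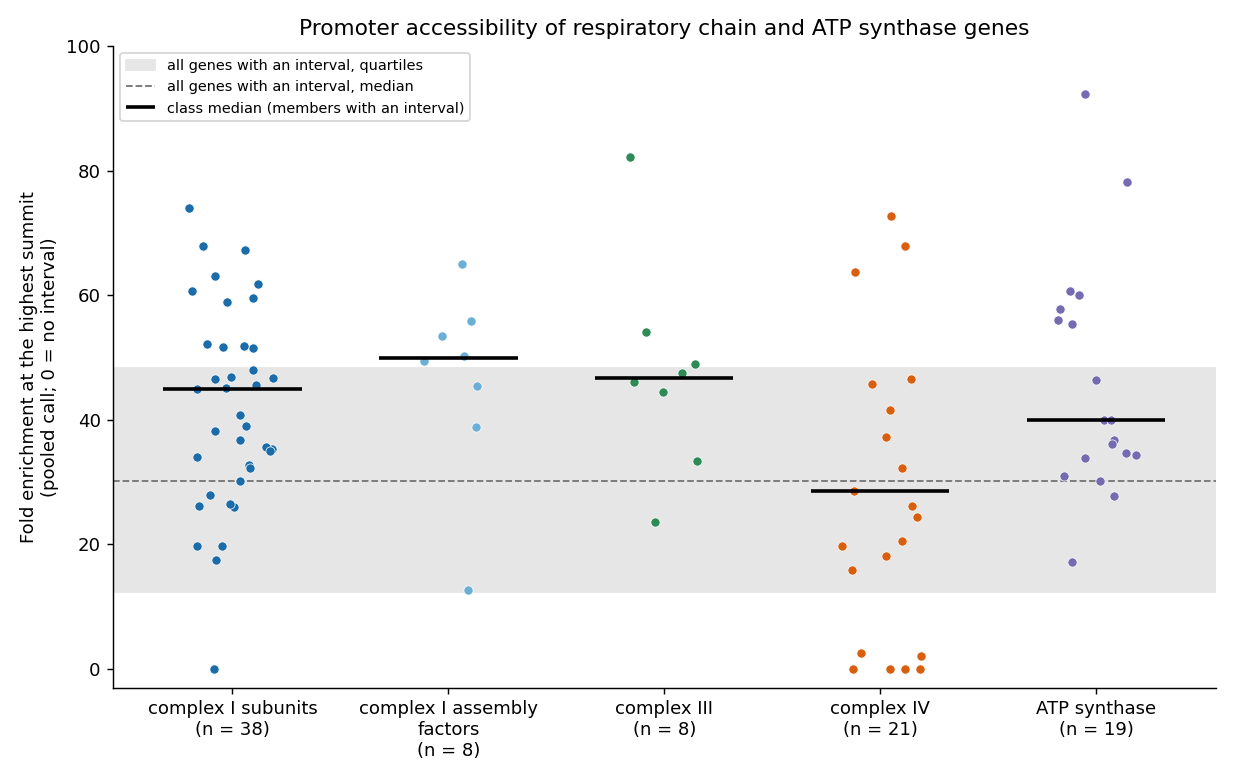
Each point is a member of the 94 genes, grouped by complex on the x axis, and the y axis gives the fold enrichment at the highest summit of its strongest promoter interval in the pooled call (linear axis, points at 0 have no interval). Black bars are class medians over members with an interval, and the grey band and dashed line are the quartiles and the median of all genes with an interval; complex IV holds 4 of the 5 points at 0 and both points under 5.

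Complex I, the largest enzyme of the chain, had an interval at 37 of its 38 subunit genes, with a median of 45.0-fold. The exception was Ndufb11b, a relative of Ndufb11 by its name, whose nearest interval lay 8968 bp away with a fold enrichment of 6.74. The 7 nuclear core subunits, which hold the flavin and the iron-sulphur clusters that carry electrons, all exceeded the median of the genes with an interval. Ndufv2, an iron-sulphur subunit, had 63.0-fold, with its summit 20 bp upstream of the TSS. Ndufs8, an iron-sulphur subunit too, had 52.2-fold and Ndufv1, which binds NADH, 51.9-fold. The lowest of the core subunits was Ndufs3 at 32.2-fold.

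The core subunits had a median of 51.9-fold, and the 30 accessory subunits with an interval one of 39.8-fold. The quartiles of the accessory subunits, 30.7 and 50.6, overlapped those of the core subunits, 40.3 and 56.4. The highest subunit of complex I was an accessory protein of the membrane arm, Ndufb5, at 74.0-fold. It was followed by Ndufa5, of the peripheral arm, at 67.9-fold and Ndufb2, of the membrane arm, at 67.2-fold. The lowest with an interval were Ndufb8 at 17.5-fold, and Ndufa1 and Ndufs4 at 19.8-fold each, accessory subunits too. The summit of Ndufs4 lay 325 bp inside the gene, in intron 1, while that of Ndufb8 lay 7 bp upstream of its TSS.

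All 8 assembly factors of complex I, proteins that help build the complex and do not stay in it, had an interval, with a median of 49.9-fold. Ndufaf4 was highest at 65.0-fold, followed by Ndufaf8 at 55.9-fold and Ndufaf7, a methyltransferase, at 53.4-fold. The lowest was Ndufaf1 at 12.6-fold, in an interval of 995 bp with a single summit 26 bp inside exon 1. Ndufaf6 followed at 38.9-fold and Ndufaf3 at 45.4-fold. At Ndufaf3 the highest summit lay 11287 bp upstream, in an interval that also covers the starts of Dalrd3 and Wdr6, and the highest summit within 1 kb of its own start had 37.6-fold.

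Complex III had an interval at all 8 nuclear genes, with a median of 46.7-fold. Its highest value, 82.2-fold at Uqcr11, a small subunit, also belonged to a summit far from the gene's start. It lay 7149 bp downstream, past the end of the gene, in an interval of 20136 bp that covers the start of Mbd3, and the highest summit within 1 kb had 27.9-fold. Uqcrq had 54.1-fold and Uqcrb 49.0-fold. Uqcrfs1, the Rieske iron-sulphur protein, had 46.0-fold with its summit 16 bp upstream of the TSS. The genes of the large core proteins were uneven, with 44.5-fold at Uqcrc2 and 23.6-fold at Uqcrc1, the lowest of the complex, and Uqcr10 lay between them at 33.3-fold.

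All 19 ATP synthase genes had an interval, with a median of 39.9-fold. The 5 subunits of the F1 head, where ATP is made, had a median of 57.7-fold. Of these, Atp5f1e (epsilon) had 78.2-fold, Atp5f1c (gamma, the rotating shaft) 60.6-fold, Atp5f1b (beta, which carries the catalytic sites) 57.7-fold, Atp5f1d (delta) 55.3-fold and Atp5f1a (alpha) 33.8-fold. The value of Atp5f1d came from a summit 7942 bp downstream in an interval of 48078 bp, the widest of any member, with 51.0-fold at its own summit within 1 kb. Atp5if1, which inhibits the enzyme when it runs in reverse, had 31.0-fold.

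The membrane part of the synthase was more uneven. Atp5mc1, Atp5mc2 and Atp5mc3, which encode the same mature c subunit of the rotor ring, had 60.0-fold, 46.3-fold and 34.6-fold. Atp5po, the stalk subunit OSCP, had 39.9-fold with its summit 52 bp inside exon 1, and its readthrough record, which starts inside the gene, caught the same interval through that summit, 4653 bp upstream, but had only 3.99-fold within 1 kb of its own start. The 5 small membrane subunits, which join the enzyme into dimers and oligomers or lie beside it, had the lowest median, 30.2-fold. Among them were the 3 lowest genes of the enzyme, Atp5mg (subunit g) at 17.2-fold, Atp5mf (subunit f) at 27.8-fold and Atp5mj at 30.2-fold.

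The highest value of any member, 92.3-fold at Atp5pf (subunit F6 of the stalk), was shared with the gene of a factor known to bind respiratory promoters. Its interval, chr16:84627917-84634682, also covers the start of Gabpa, the DNA-binding subunit of GABP. The canonical starts of the neighbours lie 980 bp apart on opposite strands, with overlapping 5′ ends. The summit lay 1071 bp inside exon 1 of Atp5pf, and the highest summit within 1 kb of its canonical start had 39.3-fold.

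In complex IV 17 of 21 genes (81.0%, Wilson 60.0% to 92.3%) had an interval, against the background of 76.4%. The median of those was 28.5-fold, and 12 of 21 (57.1%) reached 20-fold, against the background of 49.7%. All 4 genes without an interval and both genes under 5-fold were tissue isoforms or copies. Of the other 12 complex IV genes all had an interval, with a median of 39.4-fold. This division was made with the values known and is a description. Cox7c was highest at 72.7-fold, with its summit 97 bp inside exon 1, followed by Ndufa4 at 67.9-fold and Cox7a2 at 63.7-fold. Cox5b had 45.7-fold and Cox5a 37.3-fold. Cox6c had 18.1-fold, and Cox7b, on the X chromosome, 15.8-fold, the lowest of the widely used subunits. Cox7a2l, which joins complexes III and IV into supercomplexes, had 46.5-fold.

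Of the isoform pairs, 8 were compared, each a widely used gene and a relative known from few tissues. Cox8a was the widely used gene for both Cox8b and Cox8c, so the pairs are not all separate comparisons. In all 8 the widely used gene had the higher value, and in 3 the relative had no interval. For the muscle isoforms the relative ranged from absent to clearly open. Cox6a2, the isoform of heart and skeletal muscle, had no interval within 1 kb, while Cox6a1 had 28.5-fold. Cox8b, a muscle isoform too, had 2.03-fold from a weak summit 532 bp upstream in an interval of 298 bp, with a further summit of 1.83-fold 77 bp upstream, while Cox8a had 41.6-fold, a ratio of 20.5 between them. Cox7a1, the third muscle isoform, had 24.3-fold, 2.62 times below Cox7a2 at 63.7-fold, but at a summit 3 bp from its start. That value was higher than in 41.1% of all genes with an interval. The interval was 4665 bp wide with 17 summits, and the other summits within 1 kb of Cox7a1 had from 2.10-fold to 5.30-fold. The high summit thus stood alone at the start.

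The testis isoforms also split. Cox7b2 and Cox8c had no interval within 1 kb, and the nearest to Cox8c lay 13101 bp away. Cox6b2, in contrast, had 20.6-fold at a summit 64 bp upstream, with further summits of 19.1-fold and 17.3-fold inside the gene at 423 bp and 657 bp, while Cox6b1 had 32.2-fold. The ratio of 1.56 was the smallest of the 5 pairs with a ratio. Cox4i2, the isoform of lung and vessel wall, had 2.62-fold at a summit 18 bp upstream, 9.97 times below Cox4i1 at 26.1-fold.

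Ndufa4l2, known for its induction at low oxygen, had 19.8-fold against 67.9-fold at Ndufa4. That value came from a summit 1941 bp upstream in an interval of 16287 bp that also covers the start of Shmt2, a mitochondrial enzyme of serine metabolism. Within 1 kb of the start of Ndufa4l2 the highest summit had 3.73-fold, 788 bp downstream, and the ratio to Ndufa4 was then 18.2. With the local summit, Ndufa4l2 stood beside Cox4i2 and Cox8b, and Cox7a1 and Cox6b2 were the relatives with an open start.

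**Figure D2:**
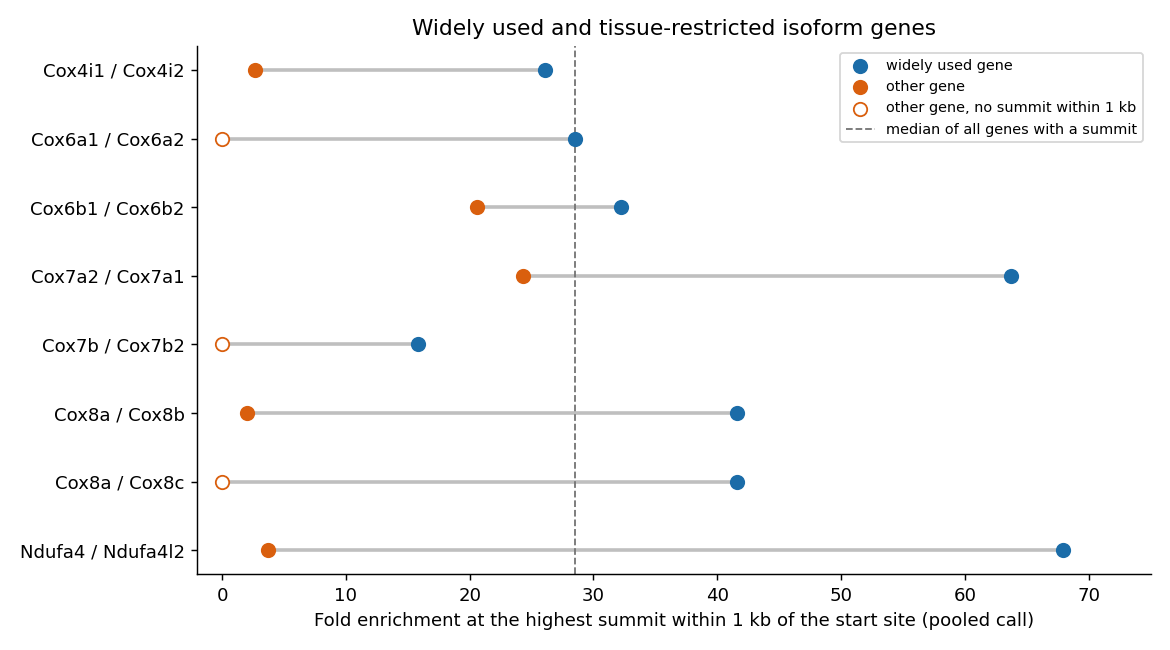
For each pair on the y axis, the x axis gives the fold enrichment at the highest summit within 1 kb of the start site (linear axis; blue, widely used gene; orange, relative; open circle at 0, no summit). The relatives of 6 pairs lie at 0 or under 5, while Cox6b2 lies at 20.6 and Cox7a1 at 24.3.

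**Figure D3:**
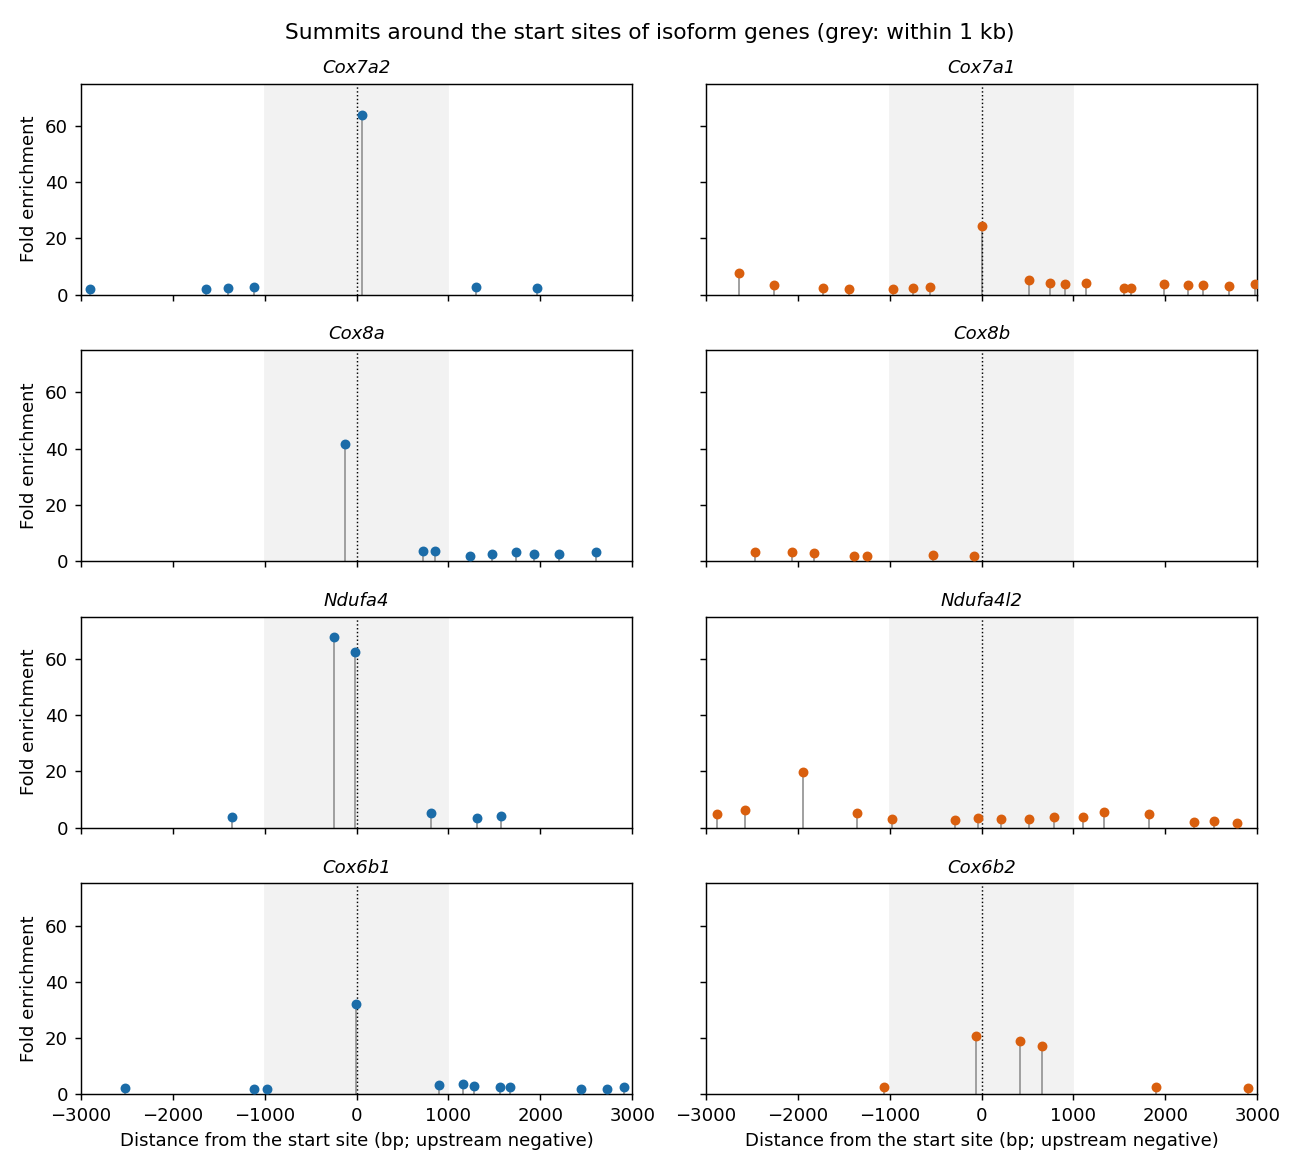
Each stem is a summit of the pooled list, with its distance from the canonical start on the x axis (bp, upstream negative) and its fold enrichment on the y axis (linear, same scale in all panels), for 4 widely used genes on the left and their relatives on the right; grey marks the 1 kb on either side. Cox7a1 has a lone high summit at its start, while the highest summit at Ndufa4l2, 19.8-fold, lies 1941 bp upstream.

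Markers of kidney cell types and of other tissues, among them muscle and testis, were read at the highest summit within 1 kb of the start. All 6 proximal tubule markers had an interval, from 5.30-fold at Slc22a6 to 33.1-fold at Lrp2, and so did all 3 of the thick ascending limb and distal tubule, from 4.39-fold at Slc12a3 to 20.8-fold at Umod. Of 4 collecting duct markers 3 had an interval, from 4.19-fold at Aqp2 to 17.0-fold at Aqp3, and Slc4a1 had none. Of 8 heart and skeletal muscle markers, 5 had an interval, from 1.96-fold at Ckm to 3.14-fold at Tnnt3, and Acta1, Myh6 and Myl2 had none. Over the whole interval Mylpf, one of these 5, had 72.9-fold in place of 3.01-fold. Cox7a1, read in the same way, had 24.3-fold.

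Of 4 fat markers 3 had an interval, from 2.55-fold at Plin1 to 5.56-fold at Cidea, and Adipoq had none. Over the whole interval Plin1 had 36.1-fold. Of 5 testis markers Akap4 had an interval, at 5.04-fold, and the others had none, beside 20.6-fold at Cox6b2. All 6 vascular smooth muscle and pericyte markers had an interval, from 3.54-fold at Acta2 to 9.23-fold at Myh11, while Cox4i2 had 2.62-fold. Of the other cell types of the cortex, all 3 podocyte markers had an interval, from 3.14-fold at Nphs1 to 17.4-fold at Podxl. All 3 endothelial markers had one too, from 2.03-fold at Pecam1 to 8.64-fold at Kdr. Of 3 immune markers Ptprc had 1.90-fold and Csf1r 3.08-fold (27.6-fold over its whole interval), and Cd3e had no interval. The part of these cells in the values of the members was not tested.

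Of the other listed genes of the pathway and its regulators, all but Cyct had an interval. All 4 subunits of complex II, the succinate dehydrogenase that lies outside the naming rule, had from 37.3-fold (Sdhc) to 62.9-fold (Sdhb). Cycs, the somatic cytochrome c, had 65.4-fold, and Cyct, its testis form, had no interval. All 29 listed assembly factors of complexes III and IV and of the ATP synthase had an interval, with a median of 32.2-fold against 41.6-fold over the members and 30.1-fold over all genes with an interval, from 16.8-fold at Atpaf1 to 75.6-fold at Cox18. All 10 listed regulators had an interval of at least 20-fold, from 28.1-fold at Gabpb1 to 92.3-fold at Gabpa, with 45.4-fold at Nrf1, 36.2-fold at Ppargc1a (PGC-1α, a coactivator of mitochondrial biogenesis) and 53.2-fold at Tfam, which maintains mitochondrial DNA.

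The summits lay close to the start sites. Within 1 kb, the highest summit of the members was a median of 47.0 bp from the TSS in either direction, against 84.0 bp over all genes, and 62 of 89 (69.7%) lay within 100 bp, against 54.6%. It fell in exon 1 at 47 members, upstream at 40, in intron 1 at Ndufs4 and in intron 2 at Ndufa4l2. In 7 of the 89 members (7.87%) the highest summit of the whole interval lay more than 1 kb from the start, against 10.7% of all genes with an interval. These members were Ndufb10, Ndufaf3, Uqcr11, Ndufa4l2, Atp5f1d, Atp5pf and the readthrough record of Atp5po. For these the local value is the closer measure of the gene's own promoter. Ndufb10 fell from 51.5-fold to 24.8-fold in this way.

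**Figure D4:**
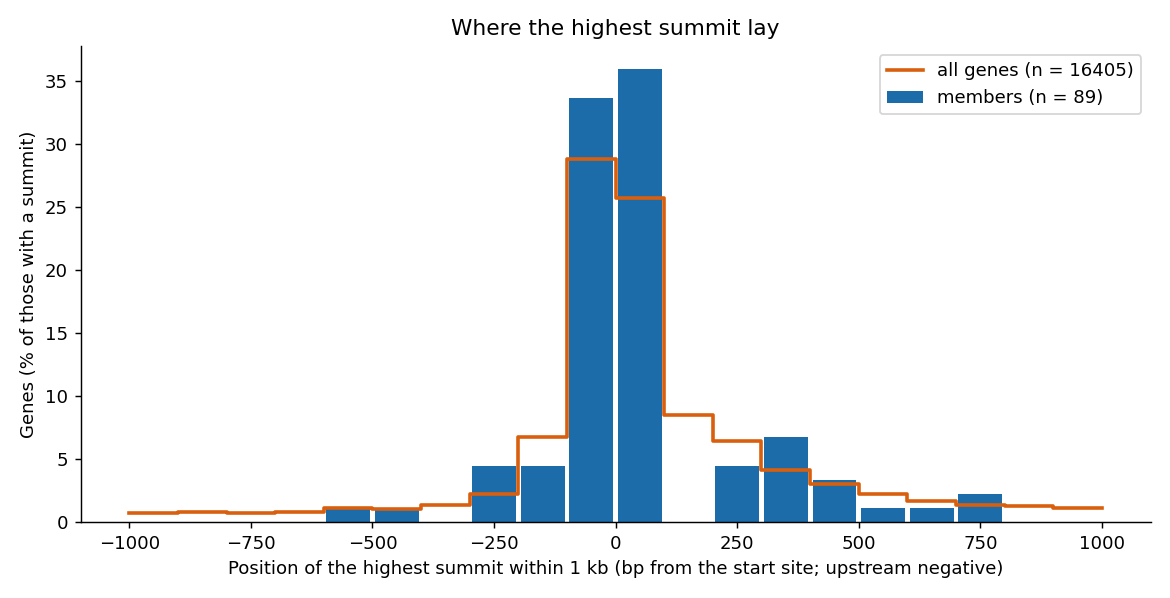
The x axis gives the position of the highest summit within 1 kb of the start in bins of 100 bp (upstream negative) and the y axis the percentage of genes with a summit, as bars for the 89 members and as a line for 16405 genes of the whole set. The bins just upstream and just downstream of the start hold 33.7% and 36.0% of the members, against 28.8% and 25.7% of all genes.

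The strongest interval of a member covered a neighbour's start more often than that of the usual gene. In 36 of 94 (38.3%, Wilson 29.1% to 48.4%) the strongest interval covered the start of a protein-coding gene of another name, against 13.5% of all genes. Both shares count genes without an interval, and in wide intervals such a start need not lie in the same promoter. A start on the opposite strand within 1 kb upstream, a divergent neighbour, was found at 13 members (13.8%, 8.26% to 22.2%), against 5.08%. Counting opposite starts on either side, so that overlapping 5′ ends are included, the number was 25 (26.6%, 18.7% to 36.3%), against 8.92%. This count was added after the data were seen. The 25 members had a median of 49.0-fold, and the members without such a neighbour one of 39.4-fold over the 64 with an interval.

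By fold enrichment, the leading divergent pair was Ndufa5 and Asb15, with starts 131 bp apart and 67.9-fold. Ndufa11 and Vmac followed, 345 bp apart, with 61.8-fold, and then Ndufa2 and Ik, a splicing factor gene 195 bp away, with 58.9-fold. Assembly factors made up the next 3. Ndufaf7 and Cebpz lay 25 bp apart with 53.4-fold, Ndufaf5 and Esf1 80 bp apart with 50.3-fold, and Ndufaf2 and Ercc8, a gene of DNA repair, 74 bp apart with 49.4-fold. The closest pair was Ndufa7 and the ribosomal protein gene Rps28, whose starts were 1 bp apart, with 26.1-fold. At Ndufb5, the highest subunit of complex I, the 5′ end overlapped that of Mrpl47, a mitochondrial ribosomal protein gene, with starts 157 bp apart. A pooled summit between such starts cannot be assigned to either gene.

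The promoters were rich in CpG. By a window of 1000 bp around the TSS with an observed over expected CpG ratio of at least 0.6 and at least 50% GC, 70 members (74.5%, 64.8% to 82.2%) had a CpG-rich promoter, against 46.4% of all genes. Of the CpG-rich promoters, 98.6% of those of members and 99.0% of those of all genes had an interval, with medians of 44.5-fold and 39.0-fold. Of the 24 members without a CpG-rich promoter 20 (83.3%, 64.1% to 93.3%) had an interval, against 56.8% of such genes, with medians of 37.0-fold and 13.6-fold. At the highest summit within 1 kb these medians were 27.8-fold and 10.7-fold. These 24 include 9 tissue isoforms and copies, and the other 15 all had an interval, from 15.8-fold at Cox7b upwards. Some of the 15, such as Ndufb10, Uqcr11 and Atp5f1d, took their value from a summit more than 1 kb away. The median of the 15 was 49.0-fold, but 34.0-fold at the local summit, and the readthrough record of Atp5po among them had 3.99-fold there. Examples of the 15 are Ndufa3 at 46.9-fold with a CpG ratio of 0.488 and Atp5mf at 27.8-fold with 0.220. Atp5pb, the b subunit of the stalk, had 56.0-fold with a ratio of 0.512. Its summit lay 616 bp inside exon 1, close to the opposite-strand start of Wdr77, 641 bp inside the gene. The value of Atp5pb therefore cannot be assigned to either gene. Cox7a1 had 24.3-fold with a ratio of 0.278, close to the ratios of 0.260 at Cox6a2 and 0.245 at Cox8b, which were closed or nearly so.

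The promoters were searched from 250 bp upstream to 50 bp downstream of the TSS, 300 bases in all, for the motifs of 7 factors, written without mismatches. A match is a description of the letters and not a bound site. NRF1 (GCGCANGCG, both strands) matched 15 members (16.0%, 9.92% to 24.7%), against 7.80% of all promoters of that length and 14.7% of CpG-rich ones. GABP (CCGGAAGT, both strands) matched 5 (5.32%, 2.29% to 11.9%), against 4.38% and 7.32%. Both shares therefore lay near those of CpG-rich promoters. SP1 (GGGCGG, both strands) matched 39 (41.5%, 32.1% to 51.6%), against 42.8% of all and 68.2% of CpG-rich promoters, and among the 70 CpG-rich members the share was 48.6% (37.2% to 60.0%). YY1 (AAGATGGC, both strands) matched 7 (7.45%, 3.65% to 14.6%), against 2.48% and 3.80%. CREB (TGACGTCA, both strands) matched 3 members, a TATA box (TATAAA on the sense strand, beginning 40 to 20 bp upstream) 1, and ERR (TCAAGGTCA, both strands) 0, against 2.46%, 2.39% and 0.477% of all promoters. Matches of different motifs overlapped once, for NRF1 and SP1.

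NRF1 matched 5 of 38 subunit genes of complex I, 2 of its 8 assembly factors, 2 of 8 genes of complex III, 1 of 21 of complex IV (Cox6a1) and 5 of 19 of the ATP synthase. The GABP matches fell in 3 of the 8 genes of complex III (Uqcr11, Uqcrh and Uqcrq) and in 2 of the 21 of complex IV (Cox8a and the retrogene Cox5b-ps). None of the relatives in the isoform pairs had a match to NRF1 or GABP, while Cox6a1 and Cox8a among the widely used genes did. Over all genes 88.4% of promoters had neither match, so for so few relatives this is near the background. Members with and without an NRF1 match had medians of 45.0-fold and 41.2-fold, with the quartiles 32.1 and 51.0 inside those without, 31.3 and 53.9. With the 200 bp around the highest summit within 1 kb as the window, NRF1 matched 21 of 89 (23.6%, 16.0% to 33.4%), against 9.66% of all genes and 13.7% of CpG-rich ones, and YY1 10 of 89 (11.2%, 6.22% to 19.5%), against 3.06% and 3.95%.

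To show such promoters, the 150 bases upstream of the start are printed for the member with the most NRF1 matches, Ndufa13, for Ndufaf4, the highest assembly factor, and for Uqcr11, the member with matches to both NRF1 and GABP. They are read from GRCm39 in the direction of the gene, and capitals mark NRF1 and GABP as before. Of the 5 NRF1 matches of Ndufa13, 3 lie in the printed bases, since its 10-base run, like that of Ndufaf4, holds a match on each strand. The NRF1 match of Uqcr11 lies downstream of its start and is not in the printed bases.
Ndufa13 (chr8:70355873-70356022, minus strand): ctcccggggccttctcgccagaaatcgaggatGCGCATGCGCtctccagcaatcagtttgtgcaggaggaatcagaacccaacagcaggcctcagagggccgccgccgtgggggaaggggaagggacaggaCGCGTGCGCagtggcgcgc
Ndufaf4 (chr4:24897931-24898080, plus strand): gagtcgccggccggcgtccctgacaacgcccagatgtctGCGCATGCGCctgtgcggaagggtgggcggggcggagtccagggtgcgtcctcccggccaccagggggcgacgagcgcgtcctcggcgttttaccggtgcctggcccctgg
Uqcr11 (chr10:80242677-80242826, minus strand): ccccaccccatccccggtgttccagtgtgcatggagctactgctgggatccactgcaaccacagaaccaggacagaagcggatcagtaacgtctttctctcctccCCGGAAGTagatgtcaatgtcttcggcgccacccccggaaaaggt

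**Figure D5:**
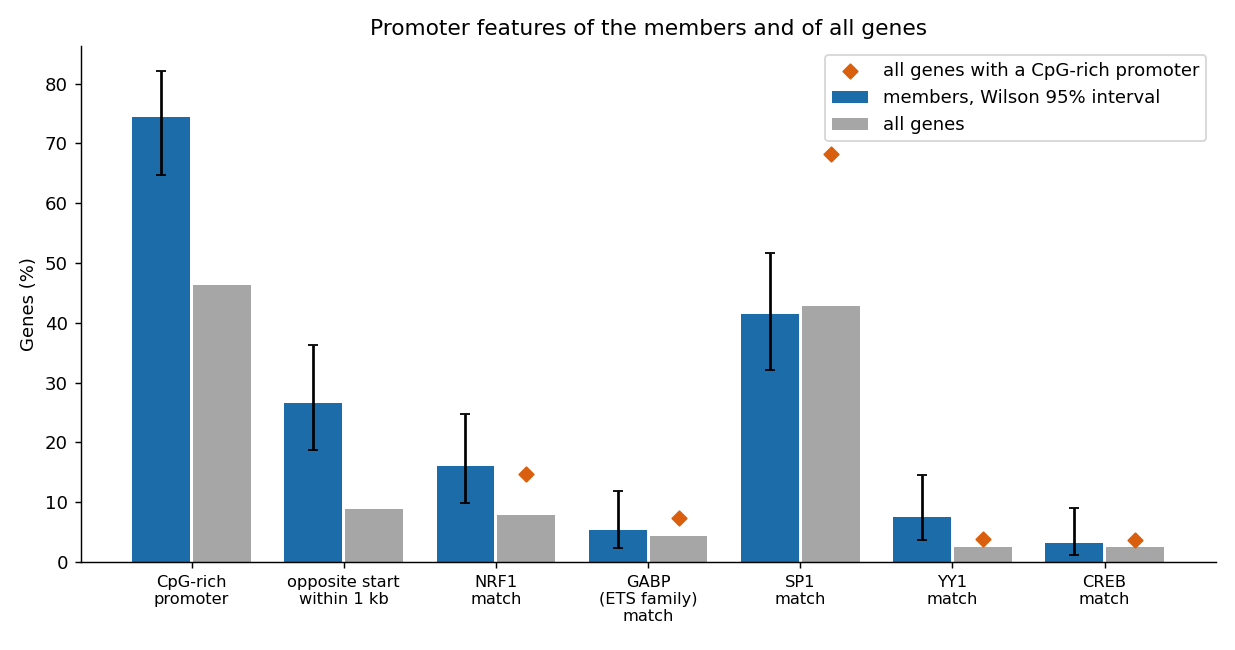
Bars give the percentage of genes (y axis) with each promoter feature (x axis), blue for the 94 members with Wilson 95% intervals and grey for all 21603 genes, and diamonds give all genes with a CpG-rich promoter. The intervals of the members lie above all genes for CpG-rich promoters, opposite starts, NRF1 and YY1, while for NRF1 and YY1 the diamonds, 14.7% and 3.80%, lie inside them.

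Further intervals overlapped the gene records away from the canonical start by more than 1 kb. Leaving out the readthrough record, which spans other genes, 69 of 93 members (74.2%, Wilson 64.5% to 82.0%) had such an interval, 302 in all, against 71.3% of all genes, a share near the background. Ndufaf2 had 26, Atp5f1c 16 and Ndufs4 14. In 10 members (10.8%, 5.95% to 18.7%) the strongest of these reached 20-fold, against 16.8% of all genes. Those of Ndufaf2 and Atp5pf lay wholly within the gene record, and the others ran past one of its ends, such as 65.3-fold at Ndufb6, past the end of its canonical transcript, and 32.7-fold at Cox7b, upstream of its canonical start at chrX:105054598-105057913. The latter was higher than the 15.8-fold at the canonical start of Cox7b, the lowest of the widely used complex IV subunits.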

How the data were processed

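Per the study's methods, the authors trimmed ATAC-seq reads with fastp, aligned them to mm39, removed duplicates and reads without a unique position, called peaks with MACS3 with split summits, and took out blacklisted regions and non-standard chromosomes. The submitters' processing notes name Bowtie2 2.3.4.3, MACS3 3.0.0, bedtools 2.29.1 and deepTools 3.5.1. The deposited peak list gives, for each summit, the fold enrichment over the caller's background (a linear ratio), the −log10 q-value and the offset of the summit in its interval, all as the authors' caller wrote them for all libraries pooled. The deposited list of unfiltered summits was not used.

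Rows were grouped into 279460 distinct intervals on the autosomes and X (749520 summits), each represented by the summit with the highest −log10 q. Distances run from the canonical TSS of GENCODE M39 on GRCm39 to the nearest base of the interval. Coordinates count from 1. The 6 libraries, 3 WT and 3 Acly cKO, could not be compared, since the values belong to no library, and no test was made. Promoter sequence was read from GRCm39. Members, classes, motifs, marker and pathway lists were chosen with earlier results of these data known. The genes named are those of the isoform pairs, the 3 highest and 3 lowest of each class, every member without an interval, the 7 nuclear core subunits of complex I and the 6 leading members with a divergent neighbour; others were named after their values were seen, and 1 gene under this rule is not reported here. Alternatives were other distances and start sites, the local summit, a q under 1e-05, the summit with the highest fold enrichment, and other motif windows. Scripts were tested on simulated data. Tables were made in Python 3.11.15 with pandas 2.3.3 and numpy 2.4.6, Wilson intervals with scipy 1.17.1, sequences were read with pysam 0.24.0, and plots were drawn with matplotlib 3.10.9.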

Additional observations from a re-analysis of the deposited data

How the results depend on the processing

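Of 99 values under the alternatives, 94 stayed within the limits set, which were 1.5 times for medians and ratios and the Wilson interval for shares, and none reversed. With intervals within 2 kb of the TSS the log2 ratio of Cox8a over Cox8b was 2.56 in place of 4.36, and with the highest summit within 1 kb that of Ndufa4 over Ndufa4l2 was 4.19 in place of 1.78. In the window from 500 bp upstream to 100 bp downstream, the share of members with an NRF1 match was 25.5% in place of 16.0%. In this window it was 9.42% of all genes and 17.8% of CpG-rich ones. The share with an SP1 match was 52.1% in place of 41.5%, against 49.6% of all genes and 77.1% of CpG-rich ones in this window. With opposite starts on either side, added after seeing the data, the share of members with such a neighbour was 26.6% in place of 13.8%. Ratios could not be computed for the pairs in which a gene had no interval.

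No paired analysis was possible because the deposited peaks are 1 pooled call that names no library, and for that reason leaving out single replicates was not run. The depth of single libraries is unknown, so whether a weak summit, such as those at Cox8b and Cox4i2, recurs between kidneys is undetermined. Because a gene takes the whole interval's highest summit, genes in wide intervals can carry a neighbour's value.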

Other observations

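In reading the promoters of the members, the letters CTACANTTC were seen at Cox7c and Cox7b, and a search for them on both strands was added afterwards. They resemble a piece of the motif of ZNF143, a factor known for promoters of housekeeping genes. They were chosen from these promoters and miss other forms, such as CTACAACTC upstream of Atp5po, so the counts are of these letters and not of ZNF143 sites. The letters matched 5 members (5.32%, Wilson 2.29% to 11.9%), namely Ndufs5, Uqcr10, Cox5a, Cox7b and Cox7c, against 2.03% of all promoters of the same length and 2.22% of CpG-rich ones. In the 200 bp around the highest summit within 1 kb they matched 2 of 89 members, against 2.04% of all genes. Cox7c and Cox7b were the highest and the lowest of the widely used complex IV subunits, at 72.7-fold and 15.8-fold. The 150 bases upstream of their starts are printed from GRCm39 with the match in capitals.
Cox7c (chr13:86195024-86195173, minus strand): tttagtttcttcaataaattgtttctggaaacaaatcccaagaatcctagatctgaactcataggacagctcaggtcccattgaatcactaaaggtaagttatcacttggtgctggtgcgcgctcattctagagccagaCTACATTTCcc
Cox7b (chrX:105059143-105059292, plus strand): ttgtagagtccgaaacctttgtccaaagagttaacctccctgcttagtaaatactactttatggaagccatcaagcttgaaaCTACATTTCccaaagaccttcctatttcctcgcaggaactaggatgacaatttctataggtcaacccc

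Cox5b-ps, a retrogene annotated as protein-coding, had no interval within 1 kb, and its nearest interval lay 2525 bp away with 2.03-fold, although its promoter held a GABP match. Ndufb11b had no interval either, and was the 1 member with a CpG-rich promoter and no peak.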
